A study of Mus musculus with 11 samples.

Results

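The 10 genes described here lie near the start of mouse chromosome 8, and their RNA was measured in premalignant mammary lesions: Xab2, Stxbp2, Trappc5, Ing1, Atp11a, Pcid2, Cul4a, Lamp1, Tfdp1 and Cdc16. They were chosen because their RNA had been found higher in PN1a lesions than in PN1b lesions in these same samples, and because they lie in the region around Gas6, which was itself left out together with Irs2. Every probe set annotated to one of these genes alone was taken, which gave 14 probe sets for the 10 genes, of 12422 probe sets tested in all, which cover 8251 genes with a single symbol. Their difference between PN1a and PN1b is therefore given as a description, with no test.

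RNA came from whole mammary glands of 5 PN1a and 6 PN1b samples, removed 8 weeks after transplantation. Both lines are Trp53-/- Balb/c mammary epithelium growing in the cleared fat pads of wildtype syngeneic female hosts that were 3 weeks old at transplantation, so the loss of p53 is shared and host stroma is wildtype in both. PN1a and PN1b arose as outgrowths on opposite sides of 1 mouse and were kept by serial transplantation, which makes each group a model of 1 outgrowth line. PN1a lesions have the higher tendency to form tumors, and the arrays compared them with PN1b lesions while both were still ductal hyperplasias. The labels do not state that each sample is a separate mouse, and the titles of 4 PN1b samples read as ranges of numbers that could stand for pooled glands, so the spread within a group may be partly technical. RNA was hybridized to Affymetrix MG_U74Av2 arrays, on which a probe set is a group of short probes for 1 transcript, and values are given as log2 of the intensity that the authors computed.

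Some samples differed in ways the groups do not explain. The endings of the sample titles fall into 3 classes that could mark a processing batch, although the sources used here do not say what they mean. All 5 PN1a samples share 1 ending with PN1b 5 and 6, PN1b 1, 3 and 4 share another, and PN1b 2 has its own. PN1a 1 and 2 differed from all other samples in 18S ribosomal RNA and in Fos, which were picked after their values were seen. Their 18S intensities were 157 and 211 as compared to 5.68 to 18 in the others. Fos was at 4.02 and 3.87 as compared to 7.94 to 9.29 on the log2 scale. The titles of PN1a 1 and 2 begin with a number and those of PN1a 3 to 5 with the line name and a letter, without a stated reason.

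The 10 genes work in unrelated parts of the cell. Tfdp1, Cul4a and Cdc16 belong to the machinery that times the cell cycle and marks proteins for degradation, Xab2, Pcid2 and Ing1 act in the nucleus on repair, RNA export and chromatin, and Trappc5, Stxbp2, Lamp1 and Atp11a serve membrane traffic, lysosomes and the lipid makeup of membranes. The human counterparts of the first 3 genes in chromosomal order lie together on 1 chromosome and those of the other 7 on another, at a chromosome end that is gained in some breast cancers. In the mouse assembly GRCm38.p6 both groups lie in 1 run of 51 measured genes, which is taken up in gene order after the values.

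Promoter sequence is shown for Pcid2 and Cul4a because they share it, and for Tfdp1 and Xab2, picked after their motifs were seen, because the protein of Tfdp1 works with E2F factors and its window holds an E2F motif, and because Xab2 is the gene nearest the chromosome start. They come from RefSeq, build GRCm38.p6, are written 5′ to 3′ in lower case, and have in capitals the letters of the motifs named here, which were searched on both strands. The first is a stretch of 221 bases between Pcid2 and Cul4a, which start 280 bases apart on opposite strands and so share it. It lies at chr8:13105373-13105593 on the plus strand, with 2 GC boxes (GGGCGG) in capitals.
Pcid2 and Cul4a: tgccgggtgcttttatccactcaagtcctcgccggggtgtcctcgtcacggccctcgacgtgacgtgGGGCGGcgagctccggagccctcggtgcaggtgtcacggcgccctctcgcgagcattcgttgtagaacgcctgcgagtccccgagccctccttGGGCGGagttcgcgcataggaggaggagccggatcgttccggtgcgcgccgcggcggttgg
The second is the 150 bases before a start of Tfdp1, at chr8:13338601-13338750 on the plus strand, with 2 GC boxes (1 on each strand) and an E2F motif (TTTCGCGC on the other strand) in capitals.
Tfdp1: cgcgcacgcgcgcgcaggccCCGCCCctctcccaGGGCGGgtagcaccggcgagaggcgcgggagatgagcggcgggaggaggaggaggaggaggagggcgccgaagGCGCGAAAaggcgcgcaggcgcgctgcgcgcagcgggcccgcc
The third is the 150 bases before a start of Xab2, at chr8:3621297-3621446 on the minus strand, with an ETS motif (CCGGAAG on the other strand), a CCAAT box and a GC box in capitals.
Xab2: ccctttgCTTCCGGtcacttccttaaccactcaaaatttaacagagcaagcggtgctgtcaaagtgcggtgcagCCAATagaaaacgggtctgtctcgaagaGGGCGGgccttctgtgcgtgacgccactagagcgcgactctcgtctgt

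Over the windows from 250 bases before to 50 bases after a start, the GC box was found for 7 of the 10 genes (Xab2, Trappc5, Ing1, Atp11a, Pcid2, Cul4a and Tfdp1) and for 38.2% of all 27025 genes with a window. Counted by window, it was in 12 of the 15 windows of the 10 genes and in 35.7% of all 32851 windows. GC boxes in the stretch that Pcid2 and Cul4a share can be counted for both genes, so the 7 genes are not independent. The windows of the 10 genes held 57.0% to 78.0% G and C, above the median of 52.7% over all windows, and the part of base composition in the GC box count was not tested. An E2F motif (TTTCGCGC, TTTGGCGC or TTTCCCGC) was found for Tfdp1 alone and for 2.12% of all genes. The ETS motif was found for Xab2, Stxbp2 and Cdc16, against 9.93% of all genes. TATAAA was found for Ing1 and Trappc5 (15.7% of all genes) and CCAAT for Ing1 and Xab2 (41.1%). A match of letters is a description of the sequence, and no binding was measured.

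By level, 13 of the 14 probe sets were higher in every PN1a sample than in any PN1b sample, and all 10 genes were so in their brightest probe set. Among all 12422 probe sets such a separation was seen in 1.58% on the higher side. The same 13 passed an adjusted p under 0.05 with a fold of at least 1.5 in limma, where 0.869% of all probe sets were called higher and 1.62% lower, and non-overlap on the lower side was seen in 2.38%. With quantile normalization repeated 13 passed (1.1% of all probe sets), 11 passed without PN1a 1 and 2 (0.684%), and all 11 of the 11 that were kept when dim probe sets were left out (2.33% of the probe sets kept were higher and 4.88% lower). With the title ending as a block 9 passed (0.0966%) and within the ending that both groups share 5 (0.0483%). Both settings rest on the same comparison, of PN1a with PN1b 5 and 6, because the other endings hold only PN1b samples. Because the genes were picked on the contrast of PN1a with PN1b, nothing is read from these counts. The median difference of the 10 genes was 2.76 on the log2 scale, from 0.95 for Cdc16 to 3.14 for Trappc5, which are folds of 1.94 to 8.81. The PN1b intensities of Trappc5 were 1.58 to 5.06, near the lowest value of the table, and on log2(value + 16) its difference was 1.15 and no longer the largest. The median over all probe sets was -0.01, with quartiles of -0.31 and 0.24. In bulk tissue a larger number of cells that express a gene and more RNA in each cell cannot be told apart.

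**Figure D1:**
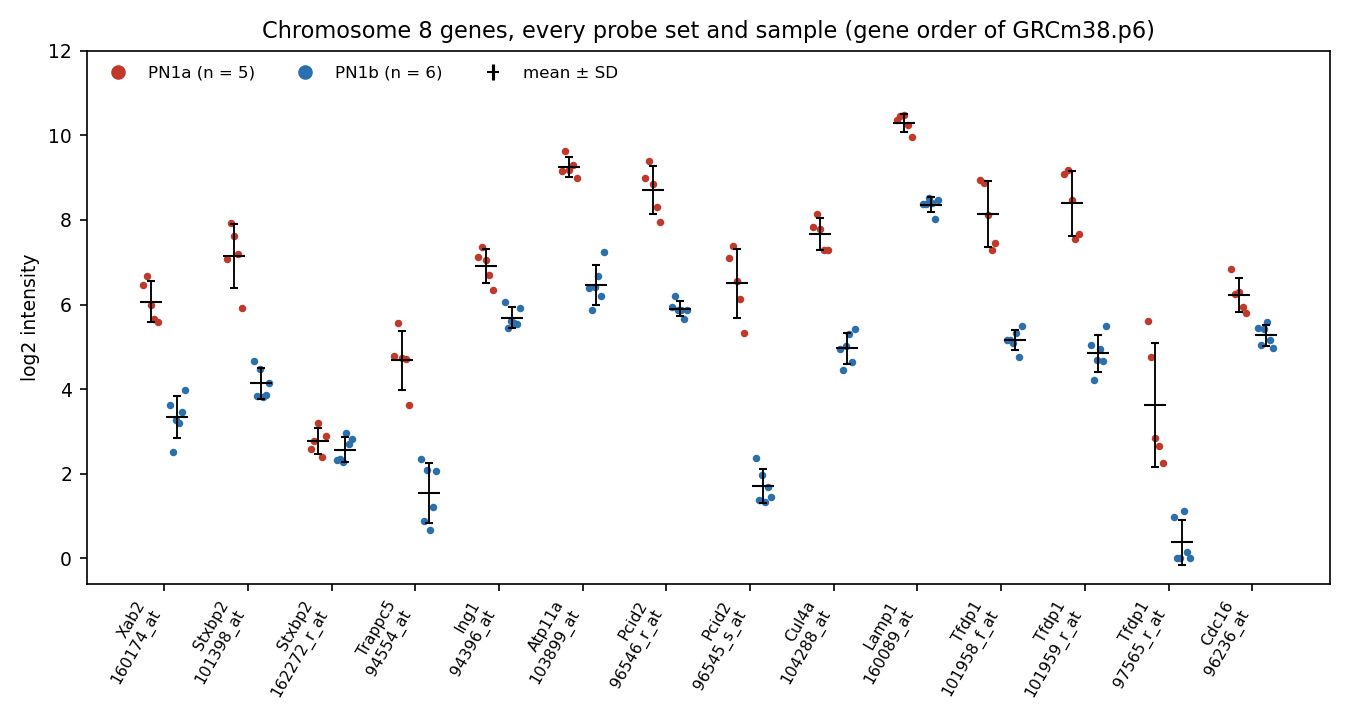
The vertical axis gives log2 intensity for each of the 14 probe sets, ordered along the chromosome, with 1 point per sample (red, PN1a, n = 5; blue, PN1b, n = 6) and black bars for the mean ± SD. All PN1a points lie above all PN1b points except for the Stxbp2 probe set 162272_r_at, and heights of different probe sets cannot be compared.

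Among the cell cycle genes, Tfdp1 encodes DP1, the partner with which E2F factors bind DNA. Its brightest probe set, 101958_f_at, read 8.94, 8.88, 8.12, 7.28 and 7.46 in PN1a 1 to 5, and from 4.77 to 5.49 with a median of 5.15 in the 6 PN1b samples. PN1a 1 and 2 were high, PN1a 4 and 5 were low, and the lowest of them still lay 1.79 above the highest PN1b sample. The means were 8.14 ± 0.77 (SD, n = 5) and 5.16 ± 0.24 (SD, n = 6), a difference of 2.97 on the log2 scale. Cul4a encodes the cullin scaffold of a family of ubiquitin ligases that act on chromatin and DNA repair. It read 7.83, 8.15, 7.79, 7.28 and 7.29 in the PN1a samples, and 4.45 to 5.42 with a median of 4.99 in PN1b. The 5 PN1a samples lay within 0.87 of each other and the gap to PN1b was 1.86, with a difference of means of 2.70. Cdc16 belongs to the anaphase-promoting complex, a ubiquitin ligase through which cells leave mitosis. It had the smallest difference of the 10 genes, at 0.95, with 6.83, 6.25, 6.30, 5.95 and 5.80 in PN1a and 4.98 to 5.59 in PN1b (median 5.28). Only 0.21 separated the lowest PN1a sample from the highest PN1b sample, which makes Cdc16 the gene closest to an overlap of the groups.

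Of the nuclear genes, Xab2 encodes a protein of spliceosomes and of transcription-coupled DNA repair. It read 6.46, 6.67, 5.98, 5.66 and 5.58 in PN1a 1 to 5 and 2.52 to 3.98 in PN1b (median 3.37). The groups were 1.60 apart at their nearest samples, the means differed by 2.73, and PN1b 2 was the lowest of all. Pcid2 is a subunit of the TREX-2 complex, which couples transcription to the export of mRNA. Its brighter probe set, 96546_r_at, read 9.0, 9.39, 8.86, 8.30 and 7.96 in PN1a, against 5.65 to 6.21 (median 5.87) in PN1b. The PN1b samples were tightly grouped, with an SD of 0.18 as compared to 0.57 in PN1a, and the difference was 2.80. Ing1 encodes a reader of methylated histone H3 that joins the Sin3 deacetylase complex and is known as a growth suppressor acting with p53, which both lines lack. It read 7.12, 7.35, 7.05, 6.69 and 6.34 in PN1a and 5.45 to 6.07 (median 5.60) in PN1b. Here the nearest samples, PN1a 5 and PN1b 1, were 0.27 apart and the means differed by 1.22.

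Among the membrane genes, Lamp1 codes for one of the main glycoproteins of the lysosomal membrane. It was the brightest probe set relative to the rest of the array, above 99.5% of all, with 10.37, 10.45, 10.48, 10.24 and 9.95 in PN1a and 8.03 to 8.53 (median 8.39) in PN1b. Both groups were narrow, with SDs of 0.22 and 0.17, and the difference of 1.93 was a fold of 3.82. Atp11a encodes a flippase, which moves aminophospholipids to the inner face of the plasma membrane. It read 9.16, 9.62, 9.17, 9.29 and 8.99 in PN1a and 5.87 to 7.24 (median 6.41) in PN1b. Unlike most of the 10 genes it varied less in PN1a (SD 0.23) than in PN1b (SD 0.47), and the difference was 2.78. Stxbp2, also known as Munc18-2, guides the fusion of secretory granules with the plasma membrane. Its brighter probe set, 101398_at, read 7.08, 7.92, 7.61, 7.20 and 5.92 in PN1a and 3.81 to 4.67 (median 4.0) in PN1b. PN1a 5 was the lowest of its group, yet 1.25 above the highest PN1b sample, and the means differed by 3.01. Trappc5 is a subunit of the TRAPP complexes, which tether vesicles on the way through the Golgi. It was the dimmest of the 10, at 4.78, 5.57, 4.74, 4.71 and 3.62 in PN1a and 0.66 to 2.34 (median 1.65) in PN1b. The groups were 1.28 apart at their nearest samples, and the difference of 3.14 rests on the low PN1b values given above.

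For 3 of the genes there was more than 1 probe set. For Tfdp1 all 3 were higher in PN1a, with differences of 2.97 for 101958_f_at, 3.55 for 101959_r_at and 3.25 for 97565_r_at. The last was dim, at 5.61, 4.76, 2.84, 2.66 and 2.25 in PN1a, and 3 of the 6 PN1b samples were at the lowest value of the table, so its difference has no settled size. After the mean of each group was removed, 101958_f_at and 101959_r_at went together over the 11 samples with Pearson's r = 0.90 (exact permutation p = 0.0047, adjusted p = 0.0235 over 5 probe set pairs) and Spearman's rho = 0.91 (exact permutation p = 0.00546), and r was 0.85 without the 2 samples farthest from the median. With 97565_r_at they gave r of 0.83 and 0.75, with adjusted p of 0.0671 and 0.0717 by exact permutation.

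For Pcid2 both probe sets were higher in PN1a, by 2.80 for 96546_r_at and by 4.8 for 96545_s_at. The second read 7.09, 7.39, 6.56, 6.14 and 5.32 in PN1a and 1.33 to 2.38 in PN1b, with the same order of the PN1a samples as in the first. Its PN1b intensities of 2.51 to 5.21 lie near the lowest value of the table, 1, so the size of its difference is not settled. Within groups the r of the pair was 0.78 (exact permutation p = 0.0319, adjusted p = 0.0671) and rho 0.66 (exact permutation p = 0.0729), and r was 0.36 without the 2 samples farthest from the median, so the relation rests on those samples. For Stxbp2 the probe sets disagreed. Probe set 162272_r_at read 2.58, 2.77, 3.20, 2.39 and 2.90 in PN1a and 2.28 to 2.96 in PN1b, the groups overlapped, the difference was 0.20, and its within-group r with 101398_at was -0.19 (exact permutation p = 0.628). It is the only one of the 14 below the threshold. Which transcript part each probe set reads was not analysed here, and 162272_r_at was dim in both groups.

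Within the PN1a group, samples kept a similar order from gene to gene. PN1a 2 was the highest of the 5 samples for 7 of the 10 genes, PN1a 1 for Tfdp1 and Cdc16, and PN1a 3 for Lamp1. PN1a 5 was the lowest for 8 genes, and PN1a 4 for Tfdp1 and Cul4a. The mean of the 10 genes, as a deviation from the group mean on the log2 scale, was 0.25, 0.52, 0.10, -0.25 and -0.62 in PN1a 1 to 5. PN1a 2 was above its group mean for all 10 genes and PN1a 5 for none. In PN1b 1 to 6 the same mean was 0.21, -0.30, 0.10, -0.05, -0.23 and 0.27, with PN1b 6 above its group mean for 8 genes and PN1b 5 for 1. The spread was larger in PN1a than in PN1b for 7 of the 10 genes, as it was for 57.3% of all probe sets. The mean of the 10 genes in PN1a 5, the lowest, was still 1.81 above the PN1b mean.

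**Figure D2:**
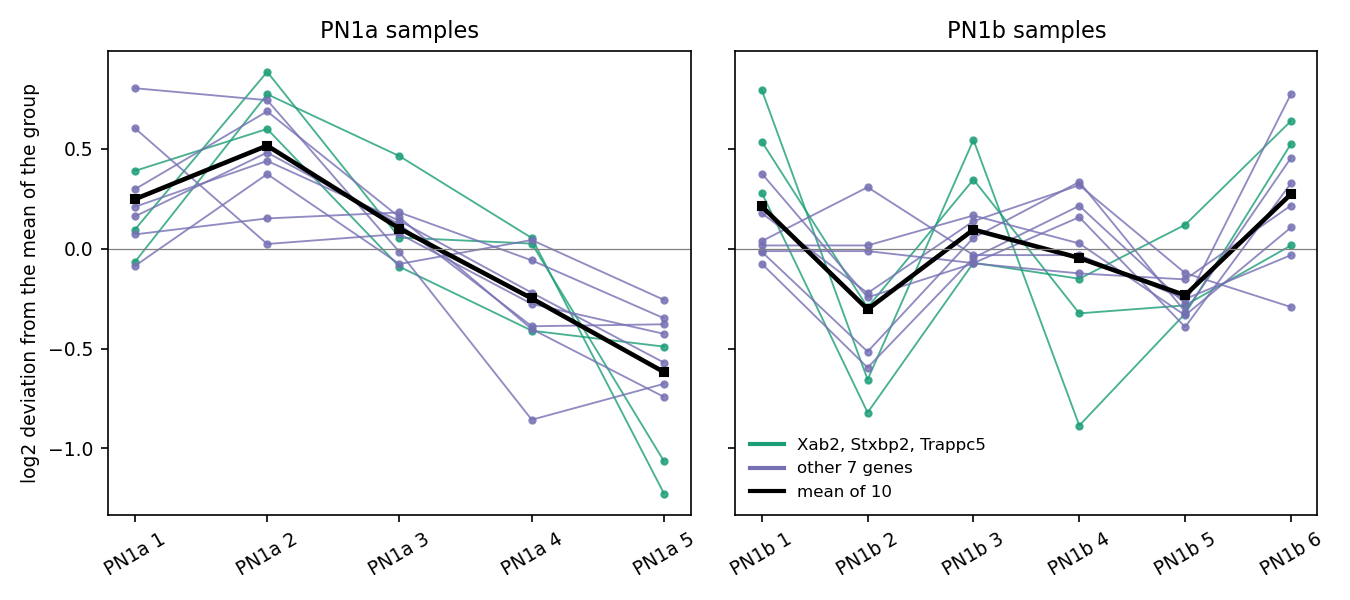
The vertical axis gives the log2 deviation of each gene from the mean of its group, in the 5 PN1a samples (left) and the 6 PN1b samples (right), with green lines for Xab2, Stxbp2 and Trappc5, violet lines for the other 7 genes and a black line for the mean of 10. Lines only join values of 1 gene, since samples have no order, and all 10 genes lie above 0 in PN1a 2 and below 0 in PN1a 5.

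How the genes vary together within groups was not used to choose them, although the size of the spread within groups enters a call. Their correlation was therefore tested on deviations from the group means over the 11 samples. All 45 pairs of genes had a positive r, with a median of 0.54 (0.03 to 0.88) and a median Spearman's rho of 0.51. Of these, 19 pairs had an exact permutation p under 0.05 and 6 an adjusted p under 0.05 over the 45 pairs, or 3 by rho. The count of 6 became 0 without PN1a 5 and ran up to 11 without PN1b 4, so which pairs pass rests on single samples. Over all other probe sets on the array, the median within-group r of each gene was 0.01 to 0.04, and the share of probe sets that reached the gene's own median r with the other 9 genes ran from 1.44% for Ing1 to 14.8% for Cdc16. Pairs share the same 11 samples and are not independent of each other.

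The closest pair was Stxbp2 and Trappc5, which lie next but one to each other, with r = 0.88 (exact permutation p = 0.000278, adjusted p = 0.0125), rho = 0.90 (exact permutation p = 0.00106) and r = 0.81 without the 2 samples farthest from the median. Ing1, although farther along the chromosome, gave r of 0.85 with Stxbp2, 0.84 with Trappc5 and 0.82 with Xab2, with adjusted p of 0.0428, 0.0207 and 0.0365 by exact permutation. Cul4a gave r = 0.82 with Atp11a and 0.76 with Tfdp1, with adjusted p of 0.0207 and 0.0432 by exact permutation. Cul4a and Pcid2, which share the stretch printed above, had r = 0.54, close to the median pair. Pcid2 and Tfdp1 had r = 0.85, which did not pass the adjusted threshold. Cdc16 and Atp11a, the most weakly related pair, had r = 0.03 (exact permutation p = 0.916).

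**Figure D3:**
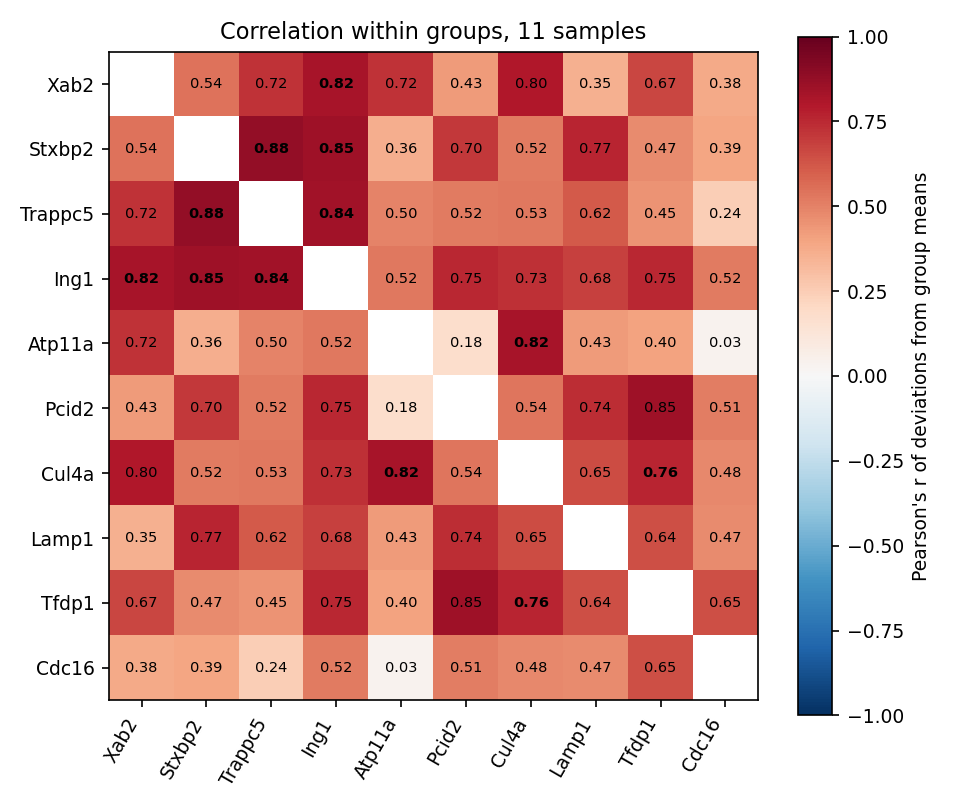
Each cell gives Pearson's r of the deviations from group means of 2 genes over 11 samples, with genes in chromosomal order, colors from -1 (blue) to 1 (red), and the 6 pairs with an adjusted p under 0.05 in bold. All 45 values are positive, from 0.03 for Atp11a with Cdc16 to 0.88 for Stxbp2 with Trappc5.

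Within PN1b alone the same pairs were compared. Over the 6 PN1b samples the median r of the 45 pairs was 0.30 (-0.65 to 0.95), 35 pairs were positive, 3 had an exact permutation p under 0.05 and 0 passed the adjustment, where the smallest adjusted p was 0.188. The smallest p that 6 samples allow is 0.00278, and a single pair at that value would not pass over 45 pairs, so the count of 0 says nothing about whether the pairs go together. The highest was Atp11a with Cul4a at r = 0.95 (exact permutation p = 0.00417, 6 samples), followed by Stxbp2 with Trappc5 at r = 0.91 (exact permutation p = 0.0181), and in both pairs the 6 samples had the same rank order. In PN1a, with 5 samples, only the ranks given above can be compared. PN1a 1 and 2, the samples that stood apart in 18S and Fos, were also on the high side for the 10 genes. Without them the median r was 0.47 over 9 samples, 43 pairs were positive and 1 pair, Stxbp2 with Trappc5, passed the adjustment. With deviations taken from the means of group and title ending, the median r was 0.70 over 10 samples, 44 pairs were positive and 5 passed.

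The 3 genes nearest the chromosome start, Xab2, Stxbp2 and Trappc5, were set against the other 7, a division made after values were seen. The mean deviations of both sets went together within groups with r = 0.76 (exact permutation p = 0.00958) and rho = 0.64 (exact permutation p = 0.0457), and r was 0.57 without the 2 samples farthest from the median. With deviations taken from the means of group and title ending r was 0.76 over 10 samples (exact permutation p = 0.0153). By rank it fell short of the threshold there, at rho = 0.62 (exact permutation p = 0.0861). In PN1b alone r was 0.51 (exact permutation p = 0.303), or 0.88 without the 2 samples farthest from the median, and without PN1a 1 and 2 it was 0.66 (exact permutation p = 0.0975), so the relation did not pass the threshold in either. Without PN1a 5, the lowest sample in both sets, r was 0.60 and also fell short of the threshold.

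Genes between and around the 10 genes were compared with limma over all probe sets. Of the 41 other measured genes from the chromosome start to the 15th measured gene past Cdc16, 2 were called higher and 1 lower in PN1a, against a background of 0.836% higher and 1.84% lower among 8251 genes. The higher ones were Gas6, a ligand of the TAM receptors, and Irs2, an adaptor of the insulin receptor, with differences of 3.23 (SE 0.30, adjusted p = 5.11e-05) and 3.04 (SE 0.46, adjusted p = 0.00352), and both had already been seen when the region was picked. The 1 lower was Agpat5, an acyltransferase of phospholipid synthesis, at 3.71 ± 0.31 (SD, n = 5) as compared to 4.52 ± 0.20 (SD, n = 6) in PN1b lesions, with adjusted p = 0.0406 in limma. This call was lost within the shared title ending (difference -0.61, adjusted p = 0.682), with quantile normalization repeated (adjusted p = 0.0558), without PN1a 1 and 2 (adjusted p = 0.0853) and in other settings.

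The other 22 measured genes that lie between Xab2 and Cdc16 were not called, at a median difference of -0.02 and a range of -1.0 to 0.62. The genes picked for being higher in PN1a, as well as Gas6 and Irs2, had been set aside beforehand. Nothing is therefore read from the absence of higher calls among the 22. Of the 22 genes, 11 were brighter than the median probe set. Among them were Col4a1 and Col4a2, chains of basement membrane collagen, and Elavl1, an RNA-binding protein that stabilizes mRNA. Col4a1, between Irs2 and Ing1, read 8.46 ± 0.31 (SD, n = 5) as compared to 8.83 ± 0.20 (SD, n = 6) in PN1b lesions, a difference of -0.37 with a 95% interval of -0.77 to 0.03. Col4a2 differed by -0.52 (interval -0.97 to -0.07) and Elavl1 by -0.43 (interval -0.80 to -0.06), with adjusted p of 0.202 and 0.19 in limma. Rab20 had the lowest difference of the 22, -1.0 with an interval of -2.03 to 0.04, and Efnb2 differed by -0.64 (interval -1.36 to 0.08). Without PN1a 1 and 2 the differences were -0.01 for Rab20 and -0.17 for Efnb2. Ankrd10, the next measured gene after Ing1, differed by -0.14 with an interval of -0.50 to 0.21, and F7, a clotting factor between Atp11a and Pcid2, by 0.05 with an interval of -0.32 to 0.42. Rasa3, a Ras GTPase-activating protein directly before Cdc16, differed by -0.19 with an interval of -0.56 to 0.18. Arhgef7 came closest to the higher call, at 6.02 ± 0.30 (SD, n = 5) and 5.39 ± 0.14 (SD, n = 6). Its difference was 0.62, with an interval of 0.24 to 1.01 and adjusted p = 0.0802 in limma. It was called when quantile normalization was repeated (difference 0.71, adjusted p = 0.0474) and when dim probe sets were left out (adjusted p = 0.0365). The remaining 11 genes between them were dim, where a change would be harder to see.

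Past Cdc16 and before Xab2, Coprs (1.12, adjusted p = 0.0546), Defb1 (1.07, adjusted p = 0.0527) and Zfp358 (1.72, adjusted p = 0.105) had larger differences than Cdc16 and did not pass in limma. In the rest of chromosome 8, 2 of 358 measured genes were called higher and 11 lower, which is 0.559% and 3.07%.

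**Figure D4:**
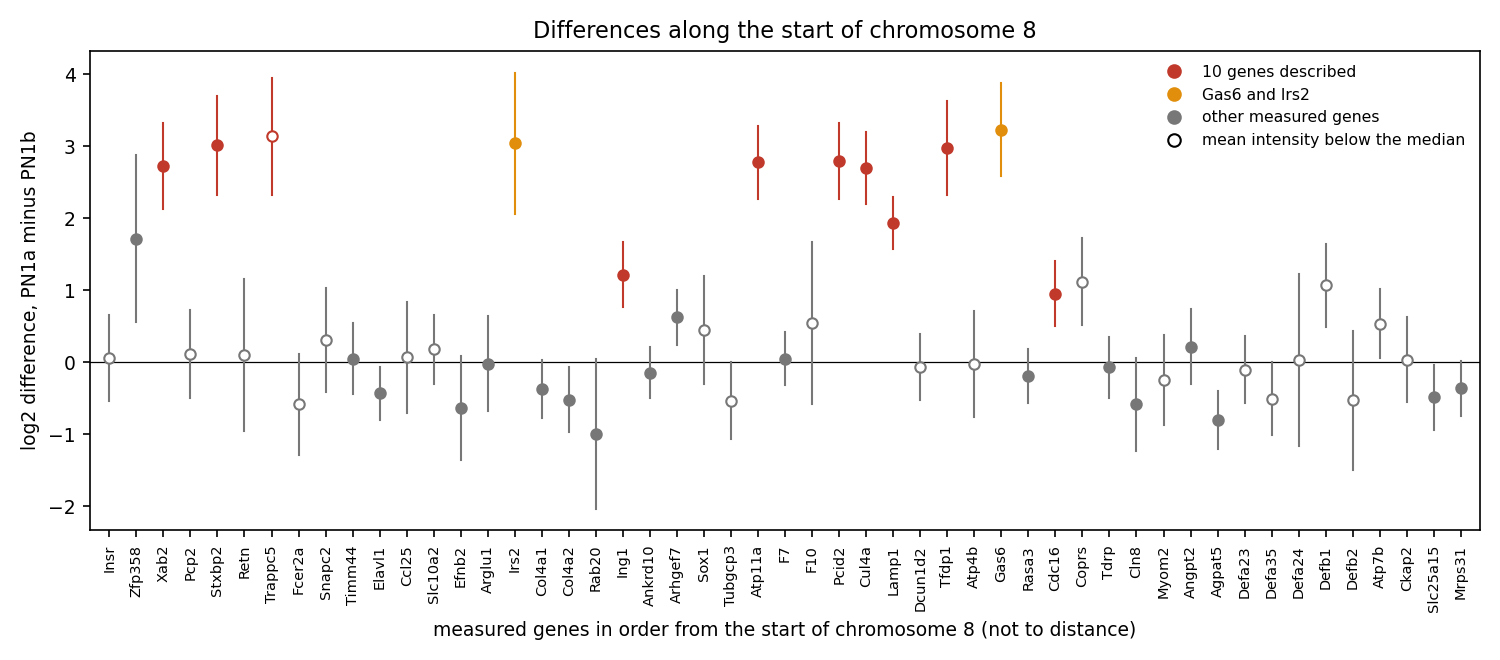
The vertical axis gives the log2 difference, PN1a minus PN1b, with its 95% interval from limma, for 51 measured genes in order from the start of chromosome 8 (not to distance), with the 10 genes in red, Gas6 and Irs2 in orange, other genes in gray and open circles for probe sets dimmer than the median. The red and orange points lie from 0.95 to 3.23, among gray points that lie between -1.0 and 1.72. The red genes were picked for being higher in PN1a, and the orange ones had been seen when the region was picked.

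The products of the 10 genes work in complexes with other proteins, and the genes of those partners were compared too. Of 149 listed partners in 11 lists, 99 were measured, 1 was called higher and 2 lower in PN1a, with a median difference of 0.04 as compared to -0.01 for all probe sets. Over all 8251 genes 0.836% were called higher and 1.84% lower, so these counts are near the background. For Tfdp1, the 7 measured genes of the E2F family and its pocket proteins had a median of 0.02 and 0 calls, and the 18 E2F target genes a median of 0.23 and 0 calls. The targets nearest to a call were Ccne1, a cyclin of S phase entry, at 0.72 (adjusted p = 0.144 in limma) and Rrm1, a subunit of ribonucleotide reductase, at 0.75 (adjusted p = 0.222). The targets went both ways, with differences from -1.34 to 0.75. Among the 7, Rbl2, a pocket protein, differed by -0.59 (adjusted p = 0.254).

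The 14 measured genes of the cullin 4 ligase had a median of -0.11 and 0 calls, with Dcaf1, a substrate receptor, at -0.81 (adjusted p = 0.119). Of the 10 genes of the anaphase-promoting complex, Anapc13 was lower in PN1a, at 4.95 ± 0.13 (SD, n = 5) as compared to 5.88 ± 0.37 (SD, n = 6), with adjusted p = 0.029 in limma, while its activator Cdc20 was at 0.56 (adjusted p = 0.393). Of the 10 genes of lysosomal membranes, Atp6v1h, a subunit of the proton pump, was at -1.0 and lower (adjusted p = 0.031) and Cd68 was higher by 1.11 (adjusted p = 0.0448), and the list's median was -0.01. A second probe set differed by only 0.04 for Cd68 and by -0.39 for Anapc13, and in the called Cd68 probe set the groups overlapped. Cd68 is also a marker of macrophages, for which 2 of 6 markers were called and summed intensities ran from 146 to 812 in PN1a and from 50.4 to 153 in PN1b. The calls of Anapc13, Atp6v1h and Cd68 were lost within the title ending that both groups share and without PN1a 1 and 2.

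For the TREX-2 complex of Pcid2, 5 genes were measured with a median of -0.30 and 0 calls, with Eny2 at -0.42 (adjusted p = 0.28 in limma). The 6 TRAPP genes had a median of -0.08, with Trappc10 at -0.73 (adjusted p = 0.0878), which passed when dim probe sets were left out (adjusted p = 0.0461). The 7 genes of the XAB2 complex and transcription-coupled repair lay between -0.02 and 0.20, the narrowest range of the 11 lists. The 10 genes of exocytic SNARE proteins had a median of 0.04, with Vamp2 at -0.69 (adjusted p = 0.206). The 9 genes of the ING family and the Sin3 complex had a median of 0.03, with Sin3a at -0.55 (adjusted p = 0.137), and for the P4 ATPases of the Atp11a family 3 genes were measured, with a median of 0.12.

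Genes other than the 10 whose pattern over all 11 samples was most like the mean of the 10 were found by Pearson's r. This r is given as a description because the group difference enters it. The 8 highest were Gas6 (0.96), Fdps (0.94), Igf2r (0.94), Plec (0.94), Igfbp3 (0.93), Irs2 (0.93), Sox11 (0.93) and Lst1 (0.92). Of the 8, 2 lie on chromosome 8, and these are Gas6 and Irs2, which had been seen when the region was picked. Of the 20 highest, 3 lie on chromosome 8, which holds 409 of the 8251 measured genes. Within groups the same genes had lower values, from 0.20 for Igfbp3 to 0.68 for Fdps, an enzyme of sterol synthesis.

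The lesions held both epithelium and stroma, and summed levels of 9 lists of cell type markers were set beside the mean of the 10 genes. Luminal keratins and adhesion genes summed to 195 to 1483 in PN1a and 1058 to 1671 in PN1b, basal markers to 437 to 908 and 705 to 1207, and fibroblast markers to 490 to 1997 and 1374 to 2342, all on the linear intensity scale. Within these lists the genes went both ways. Among luminal markers Krt8 and Krt18 differed by -1.25 and -1.40 on the log2 scale, Epcam by -0.27, Krt19 by 2.63 and Cdh1 by 0.47. Krt17 differed by 1.21, while the other basal markers were lower in PN1a. Of luminal and fibroblast markers 0 were called, and of basal markers 1 was called lower. Within groups, r with the mean of the 10 genes was 0.25 for macrophage markers (exact permutation p = 0.554), -0.57 for luminal markers (exact permutation p = 0.225) and -0.69 for adipocyte markers (exact permutation p = 0.0474). With 9 lists compared, the smallest adjusted p was 0.404. The part of cell composition in the differences between the groups was not tested.

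The differences were also taken within the title ending that both groups share. Set against PN1b 5 and 6 alone, the 10 genes differed by 1.16 for Cdc16 to 3.15 for Stxbp2, with 2.05 for Lamp1, 2.35 for Xab2, 2.53 for Atp11a, 2.63 for Cul4a, 2.94 for Pcid2 and 3.01 for Tfdp1. Every PN1a sample was above both of these PN1b samples for all 10 genes, as the separation from all 6 requires.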

How the data were processed

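Arrays (Affymetrix MG_U74Av2) were run on RNA of 5 PN1a and 6 PN1b samples. The authors used dChip, with its PM-MM model and with quantile normalization, and deposited linear intensity values for 12488 probe sets. No dChip version is stated, and scanner files were not used. Low intensities are compressed by the lowest value of 1, which holds 0.813% of values, and PM-MM subtraction adds noise there. Arrays have no read depth, and the number of arrays limits precision.

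Log2 was taken without a pseudocount after 66 control probe sets were left out. Groups came from the labels, and replicates were numbered in accession order. PN1a was compared with PN1b using limma 3.58.1 in R 4.3.3 (lmFit and eBayes, two-sided, no covariate), with p-values adjusted by Benjamini-Hochberg over 12422 probe sets and calls made at an adjusted p under 0.05 and a fold of at least 1.5. Array annotation was updated by gene identifier, with 10833 probe sets carrying 1 symbol, 396 several and 1193 none, and the probe set with the highest mean stood for a gene. Correlations used deviations from group means and exact permutation within groups (86400 arrangements, or 720 in PN1b), in Python 3.11.15 with numpy 2.4.6 and scipy 1.17.1. Promoter windows and gene order came from RefSeq, GRCm38.p6. Any pair of samples shared at most 1.24% of values. Both tests were run first on simulated data.

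The genes, the lists of partners and markers, and the tests were chosen with earlier results of these data known. Genes named are the 10 genes, neighbors that were called or lie between them, up to 2 partners per list with the smallest adjusted p, and the 8 genes most like their mean. The promoters of Tfdp1 and Xab2, as well as Coprs, Defb1, Zfp358, Fos, 18S and the luminal and basal markers named singly, were chosen after their values were seen. Alternatives were the title ending as a block and within the shared ending, other normalizations, log2(value + 16), a filter on dim probe sets, eBayes with trend and robust, the methods' t-test, a mean over all probe sets of each gene, and samples left out. Deviations from the means of title endings were added after the data were seen.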

Additional observations from a re-analysis of the deposited data

Results flagged for a closer look

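Among 122 groups of values tested for 1 sample far from the others (gap to the nearest sample over the whole range, Dixon's 95% limit), 4 were found, and chance gives about 1 in 20 groups. Lamp1 in PN1b 5 was 8.03 on the log2 scale, with the other PN1b samples at 8.38 to 8.53. Snapc2, a subunit of the small nuclear RNA activating complex that lies between Trappc5 and Ing1, was 1.5 in PN1a 5 and 2.54 to 2.89 in the other PN1a samples. F7 was 4.89 in PN1a 3 and 5.39 to 5.59 in the others. Hdac2, a deacetylase of the Sin3 complex to which Ing1 belongs, was 4.28 in PN1b 2 and 4.68 to 4.87 in the others.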

How the results depend on the processing

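The differences of the 10 genes stayed above 0 under every alternative run. This had to hold with samples left out, by title ending and on log2(value + 16), because the groups did not overlap. The genes were also picked on this contrast, so the sign is no check of the result. The median of 2.76 became 2.05 on log2(value + 16) and 2.61 to 2.85 with 1 sample left out, and the 13 member probe sets past the threshold became 5 within the shared title ending and 12 to 13 with 1 sample left out. With a mean over probe sets Pcid2 differed by 3.80 and Stxbp2 by 1.61. On log2(value + 16) Cul4a differed by 2.21, Xab2 by 1.66 and Stxbp2 by 2.24.

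Over all probe sets, the 108 called higher became 12 with the title ending as a block, 6 within the shared ending, 65 on log2(value + 16), 271 by the methods' t-test and 50 after its Benjamini-Hochberg adjustment. The 201 called lower became 19, 12, 303 (dim probe sets left out), 82 (without PN1a 1 and 2), 442 and 95 (the t-test without and with adjustment). With 1 sample left out the counts were 44 (without PN1b 3) to 182 (without PN1b 5) higher and 79 (without PN1b 1) to 377 (without PN1b 5) lower. The block and the shared ending are not separate checks, since both set PN1a against PN1b 5 and 6 and give the same differences.

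Of neighbors, the 2 called higher became 1 with the ending as a block and within it, where Irs2 lost its call (adjusted p = 0.0559 and 0.169) although its difference was 3.57 in both, as compared to 3.04. They became 5 with quantile normalization repeated or by the t-test (Arhgef7, Coprs and Defb1 added), 4 with samples centred on the median, with trend and robust, or with the mean of probe sets (Coprs and Defb1 added), and 2 to 4 with 1 sample left out, 4 without PN1a 2. The 1 called lower became 0 with the ending as a block or within it, with quantile normalization repeated, with centring, on log2(value + 16), without PN1a 1 and 2, and without each of PN1a 2, 3 and 4 and PN1b 1, 2, 3 and 4, and 2 when 25 genes past Cdc16 were taken. Partners called higher, 1, became 0 with or within the ending, without PN1a 1 and 2, and after the t-test's adjustment, and 0 to 2 with 1 sample left out. Partners called lower, 2, became 0, 0, 0 and 1 in these and 0 to 2 with 1 sample left out.

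The 6 correlated pairs became 11 with quantile normalization repeated, 1 without PN1a 1 and 2, and 0 (without PN1a 5) to 11 (without PN1b 4) with 1 sample left out, while the median r was 0.42 to 0.67. The r of Xab2, Stxbp2 and Trappc5 with the other 7 genes was 0.66 without PN1a 1 and 2 (exact permutation p = 0.0975) and 0.60 to 0.86 with 1 sample left out. The causes were not tested. No paired analysis was possible because replicate numbers only follow accession order. Dim probe sets, the 5 PN1a arrays and the ending shared with only 2 PN1b samples limit what can be seen.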
